A study of Mus musculus with 2 samples.

Results

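LSD1 (KDM1A) peaks on proximal chromosome 15 were taken as all peaks of the authors' deposited list that lie on chromosome 15 of the mouse build mm9 and start below 48 Mb. There were 512 of them among 11797 peaks in the list (4.34%) and among 1044 on chromosome 15. The study mapped where LSD1 sits in C2C12 cells, an established mouse myoblast line, by chromatin immunoprecipitation and sequencing. It used 1 LSD1 ChIP library, made with a polyclonal anti-LSD1 antibody, and 1 input library, made with no antibody. Both came from cells grown with 10% fetal bovine serum and then kept for 48 h in 2% horse serum, which starts their differentiation toward myotubes, with 25 mM glucose throughout. The labels state no genetic change. The chromatin was crosslinked with formaldehyde and disuccinimidyl glutarate, a longer crosslinker that can also hold proteins bound to DNA through a partner.

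LSD1 is a flavin-dependent enzyme that removes methyl groups from lysines of histone H3. It acts largely within complexes with the corepressor CoREST and histone deacetylases, and it is found at enhancers and promoters. In muscle cells it is known to take part in the switch of gene expression from dividing myoblasts to myotubes. Mouse autosomes carry the centromere at one end, and coordinates are counted from that end, so the segment is the centromeric side of chromosome 15.

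The members were selected on position alone, but the segment itself was chosen by its high peak density in this same list. Density, spacing, length and score all come from the 1 contrast that chose it, so every value here is a description and none was tested. With 1 library of each kind there is no replicate error. The list gives each peak a position and 1 score from the authors' peak caller, whose scale is not stated, and no read numbers. The read depth is therefore unknown, and the depth of the input over the segment was not analysed here. Windows and peaks along 1 chromosome share their libraries and are not replicates.

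LSD1 peaks were dense over most of the segment. From 3 to 48 Mb it held 11.4 peaks per Mb. Chromosome 15 from 70 Mb onward held 197 peaks, 5.90 per Mb, so the proximal density was 1.93 times the distal one. The stretch between them, 48 to 70 Mb, was denser than the segment, with 335 peaks and 15.2 per Mb. The same coordinate range on the other 18 autosomes held 2.33 (chromosome 7) to 6.64 (chromosome 10) peaks per Mb, with a median of 4.02. The proximal segment of chromosome 15 was the densest of the 19, at 2.83 times that median and 1.71 times chromosome 10. Chromosomes 13 and 17 came next, with 5.13 and 5.11 peaks per Mb. Peaks covered 0.601% of the segment, against 0.355% of the distal part and a median of 0.199% on the other autosomes. Chromosome 5 was higher in covered sequence, at 0.662%, with 24 peaks of 2 kb or longer where the segment had 2.

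The excess was present at every level of the score. The whole list was divided by score into 4 equally large classes, with limits at 59.97, 78.25 and 119.41. In the segment the classes held 140, 116, 142 and 114 peaks from the lowest to the highest. These were 3.11, 2.58, 3.16 and 2.53 peaks per Mb. The corresponding ratios to the distal part were 2.00, 1.76, 2.03 and 1.92, and those to the median of the other autosomes were 2.95, 2.58, 3.26 and 2.62. Neither the weakest nor the strongest calls alone made up the higher density. In the highest class chromosome 10 came closest, with 1.84 peaks per Mb.

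**Figure D1:**
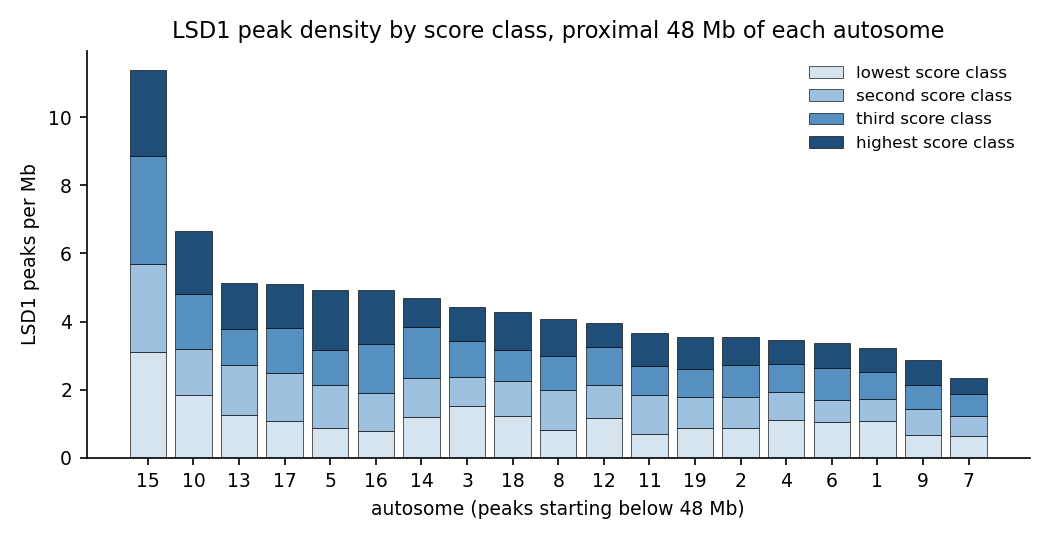
LSD1 peaks per Mb (vertical axis) on each autosome among peaks starting below 48 Mb, stacked by score class and ordered by density. Chromosome 15 stands at 11.4 per Mb, chromosome 10 at 6.64 and chromosome 7 at 2.33, and each of the 4 shades is taller on chromosome 15 than on any other autosome.

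Along the segment the peaks were unevenly spread, and every 1 Mb held some. Over 45 windows of 1 Mb the number of peaks was 11.4 ± 7.57 (SD over windows), with a lowest value of 2, a median of 9 and a highest of 37. Chromosome 3 had no empty window either. Of the 810 windows of the same range on the other autosomes, 82 (10.1%) held no peak, and their median was 3. In the segment 42 of 45 windows lay above that median, and 22 held 10 peaks or more (48.9%), as did 66 of the 810 windows elsewhere (8.15%). In the distal part 19 of 33 windows lay above 3 peaks and 3 were empty. Compared window by window with the other autosomes at the same distance from the chromosome end, the segment was above their median in 42 windows and below it in 3, those at 18 to 19, 36 to 37 and 46 to 47 Mb. It held more peaks than any of the 18 others in 15 windows.

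**Figure D2:**
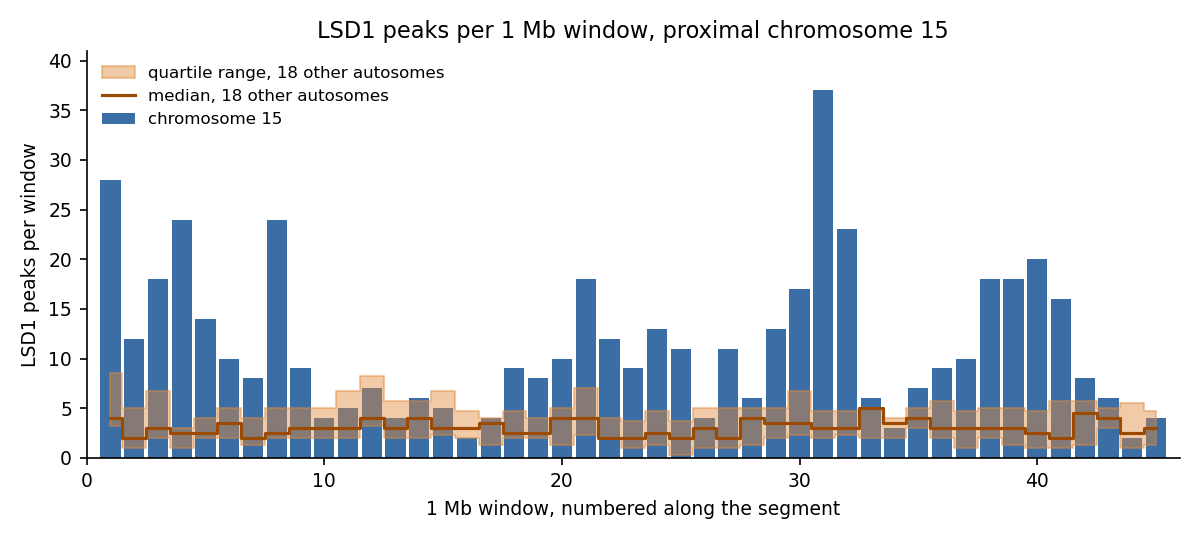
LSD1 peaks per 1 Mb window (vertical axis) along the 45 windows from 3 to 48 Mb. Bars are chromosome 15, the line is the median and the band the quartile range of the same window on the 18 other autosomes; the bars peak at 37 and fall below the line in 3 windows.

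In blocks of 5 Mb the segment showed 2 dense zones, 3 to 13 and 23 to 43 Mb, with sparser sequence between and after them. The first block, 3 to 8 Mb, nearest the centromere, held 96 peaks, and 8 to 13 Mb held 55. The count then dropped to 27 at 13 to 18 Mb and 33 at 18 to 23 Mb. It was 63 at 23 to 28 Mb, 51 at 28 to 33 Mb, 76 at 33 to 38 Mb and 75 at 38 to 43 Mb. The last block, 43 to 48 Mb, held 36. In 6 of the 9 blocks chromosome 15 was the highest of 19 autosomes, and in the sparsest, 13 to 18 Mb, it was the fifth, with 1.32 times the median of the others.

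The 3 sparsest blocks had the 3 lowest median scores and lengths. At 13 to 18 Mb the median score was 57.65 and the median length 355 bp, and 29.6% of peaks scored at or above the median of the whole list. At 43 to 48 Mb these values were 63.88, 357 bp and 30.6%. At 3 to 8 Mb they were 88.05, 476 bp and 56.3%, and at 33 to 38 Mb 87.17, 508.5 bp and 57.9%. None of the peaks of 1 kb or longer lay in the blocks at 13 to 18, 18 to 23 or 43 to 48 Mb. Taking windows with 10 peaks or more against the rest, the 22 dense windows held 377 peaks with a median score of 80.98, and the 23 others held 135 with a median of 67.76. The share of peaks of 1 kb or longer was nearly the same in both, 6.63% and 6.67%. Density and score ran only partly in parallel among the denser blocks. The densest, 3 to 8 and 33 to 38 Mb, also had the highest median scores. At 38 to 43 Mb, however, with 75 peaks, the median score was 75.66, and at 8 to 13 Mb, with 55 peaks, it was 83.35. Density and score were both set by the same caller from the same libraries.

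Relative to its mean the segment was comparatively even. The SD over 1 Mb windows divided by the mean was 0.665, against 0.834 in the distal part and a median of 0.868 on the other autosomes (range 0.639 to 1.89). Only chromosome 2 was lower. The fullest 5 of the 45 windows held 26.6% of the peaks, against a median of 31.4% and up to 60.0% (chromosome 7) on the other autosomes. The variance divided by the mean, which does not fall with a higher count in the same way, was 5.03, above the median of 3.04, and 5 autosomes exceeded it. The order of the segment in evenness therefore depended on the measure.

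The densest window of 1 Mb was 33 to 34 Mb, with 37 peaks, a median score of 102.02 and 24 peaks that had another start within 10 kb. The emptiest were 18 to 19 and 46 to 47 Mb, with 2 peaks each. The densest 100 kb lay near the centromeric end, at chr15:3598201-3698200, with 14 peaks of 283 to 1063 bp and scores from 51.27 to 300.16.

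Consecutive starts in the segment lay a median of 39.96 kb apart, with quartiles of 9.88 and 106.6 kb. The segment's median was 68.8 kb among peaks scoring the list's median or more, and 65.5 kb with peaks within 10 kb counted once. Both settings drop peaks, and no spacing at the same settings is given for the other sets. The density ratio to the distal part was 1.97 and 1.81 in these settings. With all peaks counted, the distal part had a median of 62.6 kb and quartiles of 15.9 and 200.6 kb. On the other autosomes the medians of these 3 values were 103.0, 21.6 and 314.1 kb. The upper quartile was the shortest of 19 autosomes, and only chromosome 14 had a shorter median, 33.9 kb. By contrast, 5 autosomes had a shorter lower quartile, down to 4.11 kb on chromosome 13. The difference in spacing was thus widest among long distances. Distances of 250 kb or more took up 42.9% of the segment, 71.6% of the distal part and 66.4 to 93.6% of the range on the other autosomes. Of 450 bins of 100 kb, 251 (55.8%) held at least 1 start and 199 held none. The occupied share was 13.1 to 39.6% on the other autosomes and 33.5% in the distal part.

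**Figure D3:**
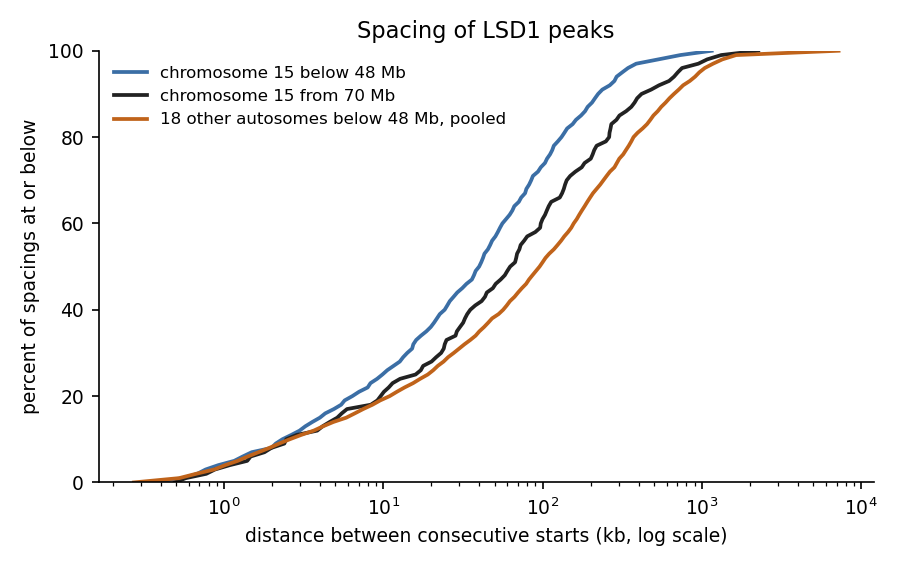
Percent of spacings between consecutive LSD1 peak starts (vertical axis) at or below a distance in kb (horizontal log axis). The 3 curves run close together below about 1 kb and separate at longer distances, where the median is 39.96 kb in the segment and 62.6 kb in the distal part.

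The longest distance without a start in the segment was 1152 kb, from the peak starting at 12448337 to that at 13600089. The next were 1033 kb, between starts at 45823699 and 46856224, and 858.1 kb, between 18640040 and 19498167. These stretches lay in or beside the sparse blocks. Only chromosome 3 had a shorter longest distance, 1041 kb, and on chromosome 7 the value was 7209 kb. The closest starts were 0.345 kb apart, at 33668978 and 33669323, inside the densest window.

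In the segment 214 of 512 peaks (41.8%, 95% exact interval 37.5 to 46.2%) had another start within 10 kb. The share was 34.5% (27.9 to 41.6%) in the distal part and 13.8 to 42.0% on the other autosomes. Exact intervals here cover counting error only, and they are too narrow because close peaks enter the count jointly. Chromosome 13 had a slightly higher share, and chromosome 14 at 41.7% was close below. Where the segment stood apart from them was in its isolated peaks: 108 (21.1%, 17.6 to 24.9%) had no other start within 50 kb, the lowest share of the 19, with 32.2% on chromosome 14 and 36.8% on chromosome 13. A higher density by itself brings starts closer, and its part in these shares was not tested.

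The groups in the segment were many and of moderate size. When starts within 50 kb of each other were joined, 43 groups of at least 4 peaks formed, which together held 252 peaks (49.2%). The other autosomes had 2 to 20 such groups, with 5.26 to 44.1% of their peaks. The largest group by number of peaks, at chr15:3537680-3681745, held 16 peaks over 144.1 kb. It was followed by 12 peaks at chr15:10785527-10899644 and by 10 each at chr15:5389499-5487763 and chr15:43523255-43592697. The last of these lay inside the sparse block at 43 to 48 Mb. Chromosomes 14 and 13 held single groups of 66 and 52 peaks, while the median largest group on the other autosomes had 8. With a limit of 10 kb, groups of at least 4 held 8.01% of the peaks of the segment, and the largest had 9 peaks over 24.6 kb, at chr15:3657192-3681745. On chromosomes 14 and 13 the corresponding shares were 28.4 and 24.2%. The median share of the other autosomes was lower than in the segment, 6.47%, as was that of the distal part, 5.58%. Their median largest group at this limit had 5 peaks on the other autosomes. The segment had 58 pairs and 19 groups of 3 at this limit among its 512 peaks. Chromosome 13 had 16 and 3 among 231 peaks, and the distal part had 21 and 5 among 197. These counts are not scaled to the number of peaks, which differs between the sets.

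Peaks in the segment had a middling length. Their median length was 433 bp, with quartiles of 350 and 618.5 bp and a range of 212 to 2469 bp. The median on the other autosomes ranged from 389 to 535 bp around a middle value of 431.3 bp. In the distal part of the same chromosome peaks were longer, with a median of 532 bp and an upper quartile of 794 bp. In the segment 34 peaks (6.64%, 95% exact interval 4.64 to 9.16%) were 1 kb or longer, against 20 (10.2%, 6.31 to 15.2%) in the distal part. These intervals overlap. In the whole list the share was 6.32%, close to that of the segment. On the other autosomes below 48 Mb the share had a median of 2.62%, and 4 of them exceeded the segment. Scores were close in all of them: the median score was 78.21 in the segment, 76.48 in the distal part and 77.95 as the middle value of the other autosomes. Exactly 256 of 512 peaks scored at or above the median of the whole list, 78.25.

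The proximal peaks were shorter than the distal ones within each score class as well. From the lowest to the highest class the median length was 322, 400.5, 457.5 and 777 bp in the segment, and 372, 434, 554 and 798.5 bp in the distal part. The difference was 50 bp in the lowest class, 96.5 bp in the third and 21.5 bp in the highest. On the other autosomes pooled, the values were 336, 387, 466 and 664 bp. In the highest class both parts of chromosome 15 lay above the pooled value, and the segment was within the range of 586 to 909 bp of single autosomes.

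**Figure D4:**
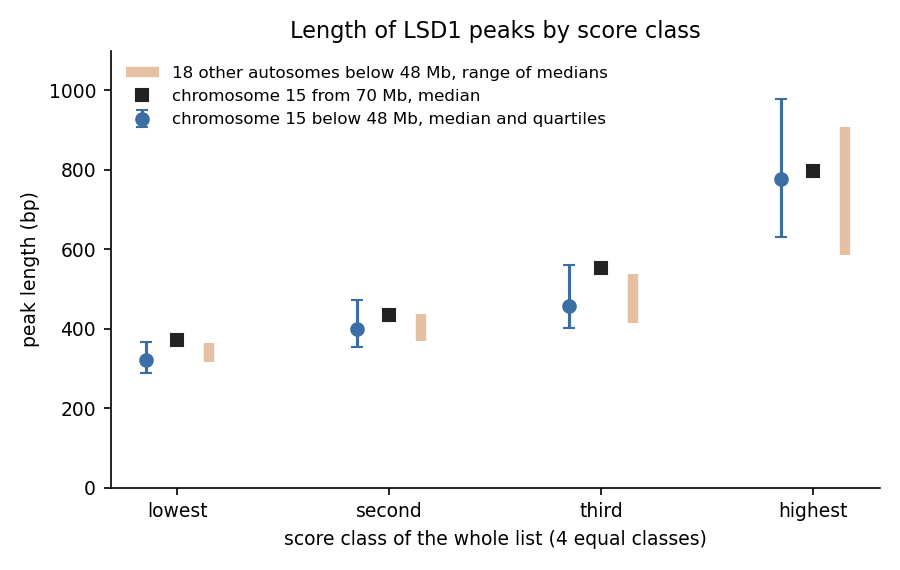
Length in bp (vertical axis) of LSD1 peaks by score class. Circles are the segment (median, with bars to the quartiles), squares the distal part, and shaded bars the range of medians on the 18 other autosomes; each square lies above its circle, by 96.5 bp in the third class.

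Peaks with close neighbours were a little longer than isolated ones. Those with a start within 10 kb measured 459 bp in the middle of their range and scored 79.20 (medians), and those with none within 50 kb had medians of 394 bp and 71.55. Of the 34 peaks of 1 kb or longer only 2 were isolated in this way. In the distal part the gap in length was narrower, with 554 bp and 78.58 for close neighbours and 520 bp and 69.61 for isolated peaks. On the other autosomes pooled it was wider, with 509 bp and 86.97 for close neighbours and 407 bp and 73.52 for isolated peaks.

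High scores occurred at several places in the segment. The highest, 938.94, belonged to a 1260 bp peak at chr15:33836219-33837478, inside the densest window, and 27 peaks of the whole list scored higher. A 1899 bp peak at chr15:6971629-6973527 followed with 922.53. Next came the peaks at chr15:23435513-23436846 (1334 bp, score 749.73) and chr15:23381641-23382503 (863 bp, 574.87), whose starts lay 53.9 kb apart.

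The peaks at chr15:32258114-32259596 and chr15:32944809-32945899 scored 536.48 and 526.76. Those at chr15:42200803-42202199, chr15:7812472-7813909, chr15:8755487-8757955 and chr15:41748366-41749048 completed the highest 10, with scores of 478.97, 464.21, 456.24 and 386.10. All 10 lay in the dense zones, as did 416 of all 512 members (81.3%), and had another start within 50 kb, as did 78.9% of members. Of the 10, 8 were 1 kb or longer, as were 34 of all 512 members (6.64%). Length rose with score throughout the segment, to a median of 777 bp in the highest score class. In the segment 6 peaks (1.17%) scored 500 or more, nearly the share in the whole list (1.18%), and in the distal part the highest score was 401.49. The longest peak was the 2469 bp one at chr15:8755487-8757955. Besides it and the peaks of 1899 and 1483 bp already given, the longest 5 included chr15:25844596-25846644 (2049 bp, score 377.79) and chr15:38472495-38474278 (1784 bp, 231.69).

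The limit at 48 Mb fell in sparse sequence. The last peak inside it was at chr15:47799631-47800176 (546 bp, score 82.87), and the first outside was at chr15:48553463-48553758 (296 bp, 67.31). The windows on either side held 4 peaks each, and the number rose to 28 at 52 to 53 Mb. At the other end, the first peak of the chromosome was at chr15:3327825-3328192 (368 bp, 53.23).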

How the data were processed

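The list compares 1 LSD1 ChIP library with 1 input library. Reads were aligned with BWA to mm9, per the submitters' processing notes, and peaks were called with MACS in Galaxy, per the file headers. No version, setting or read filter is named in these sources. The deposited score of each peak is the authors' and was used only within this list.

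Positions are 1-based, and sets were cut by the 0-based start of the deposited file. Density used 45 Mb from 3 Mb on each autosome (1 peak of chromosome 11 lies before 3 Mb) and the distance from 70 Mb to the last start in the distal part. Shares carry exact (Clopper-Pearson) 95% intervals. The segment and the measures were chosen with earlier results of these data known. The peaks named were, by rule, the 10 highest in score, the 5 longest, the extreme windows, groups and distances, and the first peak and those at the limit. The next largest groups after the first and the closest pair of starts were named after their values were seen.

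The alternatives used only peaks in the upper score range (the list's median or more), peaks within 10 kb counted once, no peaks of 2 kb or longer, limits of 38 and 50 Mb, other windows and other distances. The counting was tested on a simulated layout. A genome and annotation of mm9 were not used here, so no gene, sequence or genomic location is given. The software was matplotlib 3.10.9, pandas 2.3.3, scipy 1.17.1, numpy 2.4.6 and Python 3.11.15.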

Additional observations from a re-analysis of the deposited data

How the results depend on the processing

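The density ratio of the segment ranged from 1.81 to 1.97 against the distal part and from 2.62 to 3.004 against the median of the other autosomes over 6 alternatives, and it stayed above the densest other autosome (1.56 to 1.72). With only peaks in the upper score range (the list's median or more), density was 5.69 per Mb and the share with a start within 10 kb 29.3%. The median spacing was 68.8 kb in that setting and 65.5 kb with peaks within 10 kb counted once. The share was 8.79% within 1 kb and 78.9% within 50 kb. The SD over the mean was 0.403 with 5 Mb windows, where 5 autosomes were lower. Counted from the lowest of 19, the segment had rank 3 with only peaks in the upper score range (0.914). Its rank was 4 with the 38 Mb limit (0.693) and 1 with peaks within 10 kb counted once (0.560). Length and score medians moved by less than 1.5 times. The largest shifts, from 433 to 579.5 bp and from 78.21 to 111.9, came with only peaks in the upper score range. That filter raises the score median by its own rule. With peaks within 10 kb counted once no neighbour share exists. Location and base composition were not run. No paired analysis was possible because the list pools 1 ChIP and 1 input library without values per library, which also left no library to leave out.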

Other observations

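Length and score parted in a few peaks of the segment, which were picked after their values were seen. Of its 34 peaks of 1 kb or longer, 4 scored below the list's median, at chr15:7788338-7789403 (1066 bp, score 64.65), chr15:25325839-25326838 (1000 bp, 53.58), chr15:27871469-27872510 (1042 bp, 75.17) and chr15:31266579-31267592 (1014 bp, 72.51). In the whole list 92 of 746 such peaks (12.3%) did. The first 3 had another start within 5 kb, and the last had none within 25 kb. In the other direction, the highest score among peaks shorter than the list's median length was 126.38, for a 437 bp peak at chr15:32930294-32930730, which lay 14.5 kb from the peak with the sixth highest score of the segment.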
